A study of Mus musculus with 2 samples.

Results

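Cytosolic ribosomal proteins are the protein part of the ribosome that translates nuclear-encoded mRNA. Their genes were followed here in follicular and marginal zone B cells of mouse spleen. Members were the probe sets annotated to exactly 1 gene whose symbol begins with Rpl or Rps followed by a number and optional letters, or is Rplp0, Rplp1, Rplp2 or Rpsa, without the ribosomal S6 kinases. The rule found 45 of 12393 genes that had a probe set of their own, 24 of the large and 21 of the small subunit, on 96 of 22626 probe sets. It used names only and no measured value. Another 102 probe sets list a ribosomal protein gene together with other genes and stood outside the rule. For 30 ribosomal protein genes such shared probe sets are the only ones on the array, so the 45 genes are not the whole ribosome.

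The ribosome joins a small subunit, which reads the mRNA, to a large subunit, which forms peptide bonds and releases the chain through an exit tunnel. Each particle needs about equal numbers of its proteins, and their mRNAs are among the most abundant of most cells. They begin with a tract of C and T bases, the terminal oligopyrimidine (TOP) tract, through which the kinase mTOR and the binding protein Larp1 control their translation. Protein output can thus change without a change of mRNA level. Resting B cells translate little and enlarge their ribosome supply when activated.

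There was 1 array of each population. Both came from wild-type female C57BL/6 mice, with cells of 3 spleens enriched on beads against B220 and sorted by flow cytometry. Follicular B cells, which recirculate, were sorted as CD23 high and CD21 intermediate; marginal zone B cells, which reside beside the marginal sinus and respond early to blood-borne antigen, as CD23 intermediate and CD21 high. Sorted cells were pooled before lysis. Whether 1 set of mice gave both populations is not stated. With 1 array per population there is no replicate error and no test between populations, so no p-value is given and every difference is a size in these arrays. Signals are MAS5 intensities scaled to a common trimmed mean, follicular before marginal zone. A gene is described by its brightest measured probe set, meaning one above a floor of 12.7 on at least 1 array, and a log2 ratio is marginal zone over follicular. In such pooled samples, fewer cells of a type and less RNA per cell cannot be told apart.

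The populations were checked by their markers. All 5 follicular marker genes were at least 1.5-fold higher in the follicular sample. All 5 measured marginal zone markers were at least 1.5-fold higher in the marginal zone sample, S1pr3 being under the floor. Among them, Fcer2a and Cr2 encode CD23 and CD21, on which the cells were sorted. Markers not used in the sort included Klf2, at 1112 and 452, and Cd1d1, at 73.4 and 707. All 9 B cell markers on the array were above the floor in both. Macrophage markers were above the floor for 3 of 14 genes in the follicular and 7 of 14 in the marginal zone sample, with summed signals of 99.9 and 204.0. The floor is the median of all scaled values, so over all probe sets as many values lie above it as below. Marco, Siglec1 and C1qc were under the floor in both. Plasma cell markers summed to 1155 and 1419, mostly from Xbp1, at 397 and 659, and Irf4, at 532 and 527. Of these markers 5 of 9 were higher in the marginal zone sample. Sdc1, at 68.3 and 4.35, and Creld2, at 74.6 and 48.1, went the other way, and Tnfrsf17 was under the floor in both. Red cell markers summed to 86.1 and 25.8 and T cell markers to 58.8 and 27.4. No gene of these 4 lists was at 0 on either array. The part of such cells in the ribosomal protein signals was not tested.

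Ribosomal protein genes were slightly higher in marginal zone than in follicular B cells and, taken over all signal levels, differed less between the populations than most genes. Of the 42 measured members, 31 (73.8%) were higher in marginal zone cells, against 47.8% of all 7695 measured genes. After intensity-dependent loess centring the shares were 59.5% and 48.9%. The median log2 ratio was 0.09 over the members and -0.03 over all genes, and after loess 0.036 and -0.017. The difference was small for nearly every member: 38 of 42 (90.5%) lay within 1.5-fold, as did 70.6% of all genes. Past 1.5-fold were 3 members in marginal zone cells, with 13.6% of all genes as background, and 1 in follicular cells, with a background of 15.8%. Past 2-fold there was 1 member in each direction, against 4.39% and 4.86% of all genes. For all members together, both shares past 1.5-fold, 7.14% and 2.38%, were thus below those of genes in general. For the large subunit alone they were 13.6% and 0%, the first near the background, and for the small subunit 0% and 5%. Members were also brighter than most genes, with a median follicular percentile of 99.4 against 72.8 for all genes. Shares within ranges of signal are given below.

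**Figure D1:**
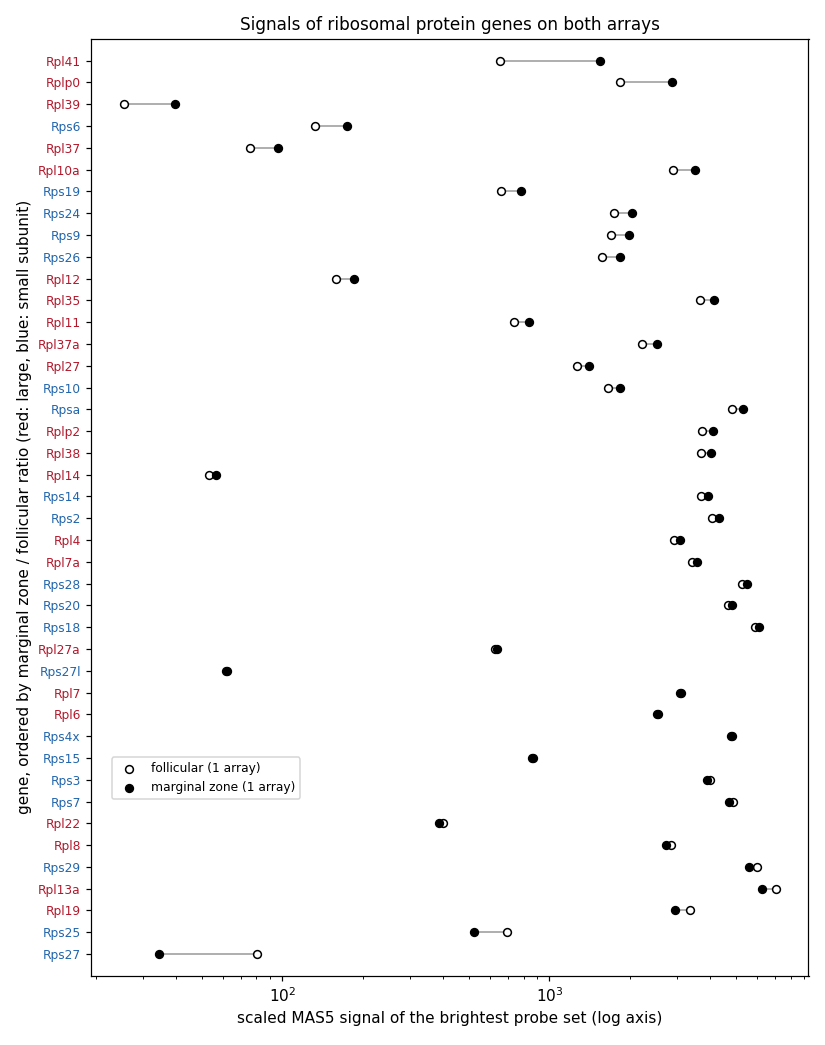
Signals of the 42 measured ribosomal protein genes on the follicular (open) and marginal zone (filled) array, on a log axis, with genes ordered by their ratio and names in red for the large and blue for the small subunit. Most pairs of points nearly coincide; Rpl41, at 653 and 1547, and Rps27, at 80.1 and 34.4, are the widest apart.

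The 3 members not measured were Rpl39l, at 9.20 and 2.77, Rpl3l, at 2.73 and 0.99, and Rps4l, at 0.81 and 1.29. All are paralogs of a core ribosomal protein gene, and their signals were under the floor on both arrays. Rpl3l is known from striated muscle and Rpl39l from the testis. The remaining paralog, Rps27l, which p53 induces, was at 61.4 and 62.2 on its brightest probe set. Its others were at 51.0 and 60.0 (1.18-fold) and at 28.2 and 44.4 (1.58-fold), and the mean log2 ratio over the 3 was 0.30.

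The 4 members past 1.5-fold were 3 proteins of the large and 1 of the small subunit. Rpl41, the smallest ribosomal protein, which lies at the interface of the subunits, gave 653 on the follicular and 1547 on the marginal zone array. That is 2.37-fold, the highest ratio of any member. Its other probe sets were at 122 and 271, at 373 and 752, and at 634 and 711. So 3 of 4 probe sets of Rpl41 were past 2-fold and the remaining one was 1.12-fold higher in marginal zone cells.

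Rplp0, which anchors the lateral stalk that recruits elongation factors, was at 1830 and 2878, 1.57-fold higher in marginal zone cells. It had 1 probe set. Rpl39, a small protein of the exit tunnel wall, was at 25.6 and 39.6, 1.55-fold higher, also on 1 probe set. When a pseudocount replaced the floor, its log2 ratio was 0.45, under the threshold. Rps27, a zinc-binding protein of the small subunit, went the other way: 80.1 and 34.4, 2.33-fold higher in follicular cells on its 1 probe set. For Rpl39 and Rps27 a shared probe set also lists the gene, beside 1 other gene. The one listing Rpl39 was at 4701 and 4645, a log2 ratio of -0.02, and the one listing Rps27 at 5212 and 4778, a log2 ratio of -0.13. These much brighter probe sets showed no difference near 1.5-fold, and which of their genes gave the signal was not tested.

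The start sites of the members past 1.5-fold, Rpl41, Rplp0, Rpl39 and Rps27, are shown first, since the TOP tract lies there. Rpl35, Rpl27a, Rps18 and Rps6 follow as examples within 1.5-fold, and each has a run of C or T bases near the start. As 13 measured members have no such run, the lines are no comparison of the 2 kinds of member. Each line gives bases from 10 before to 20 from the RefSeq start in GRCm38.p6, 5′ to 3′, with runs of at least 5 C or T bases in capitals.
Rpl41, chr10:128549149-128549178, minus strand: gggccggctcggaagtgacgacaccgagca
Rplp0, chr5:115559457-115559486, plus strand: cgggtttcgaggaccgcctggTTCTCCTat
Rpl39, chrX:37085203-37085232, minus strand: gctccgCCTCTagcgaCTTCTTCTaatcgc
Rps27, chr3:90213629-90213658, minus strand: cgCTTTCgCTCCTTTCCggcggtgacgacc
Rpl35, chr2:39005112-39005141, minus strand: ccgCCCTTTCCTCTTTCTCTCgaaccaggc
Rpl27a, chr7:109519185-109519214, plus strand: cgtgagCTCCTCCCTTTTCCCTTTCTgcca
Rps18, chr17:33955646-33955675, minus strand: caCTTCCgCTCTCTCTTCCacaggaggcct
Rps6, chr4:86857348-86857377, minus strand: gaagtcgggCCTCTTTTTCgtgacgCCTCC

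RefSeq promoter windows matched 39 of the 45 genes, with 47 windows. A run of at least 5 C or T bases within 5 bases of the start was in 26 of 47 windows (55.3%), against 32.9% of all 32851 windows. The median log2 ratio was 0.11 over the 24 measured genes with such a run and 0.14 over the 13 without. A RefSeq start may lie some bases from the start used in B cells, so a missing run says nothing about the mRNA. The letters CGGAAG, on either strand, form the core that Ets family factors bind. They were in 29 of 47 windows (61.7%) and in 16.9% of all windows. AAGATGG, on either strand, is part of the motif of the factor YY1 and was in 6 of 47 (12.8%) against 6.34%; on 1 strand the motifs can share the letters AAG. The 80 bases before the start of Rps18, which holds the first motif more than once, and of Rps27 and Rpl41, which lay at opposite ends, show them in capitals.
Rps18, chr17:33955666-33955745, minus strand: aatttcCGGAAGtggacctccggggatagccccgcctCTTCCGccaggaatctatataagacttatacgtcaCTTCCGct
Rps27, chr3:90213649-90213728, minus strand: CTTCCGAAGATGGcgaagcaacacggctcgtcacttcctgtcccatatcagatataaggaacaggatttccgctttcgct
Rpl41, chr10:128549169-128549248, minus strand: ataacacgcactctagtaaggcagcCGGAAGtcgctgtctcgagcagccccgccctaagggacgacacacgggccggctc
The genes with the lowest and the highest ratio both hold the first motif. A match is a description of letters and no evidence of binding.

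Large subunit genes had a median log2 ratio of 0.14 over 22 measured members, and small subunit genes one of 0.05 over 20. Of the large subunit genes 18 were higher in marginal zone cells, and of the small subunit genes 13. The medians differed by 0.09, a difference without an error here. It depended on signal. Among members with a mean signal under 3000 the medians were 0.18 for 13 large and 0.18 for 10 small subunit genes. At 3000 or more they were 0.08 for 9 large and 0.04 for 10 small subunit genes. With each gene described by its brightest probe set under 3000, a choice made after seeing the data, the difference was -0.025, the small subunit being the higher.

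In the large subunit the stalk is formed by Rplp0, Rplp1 and Rplp2 on a base that includes Rpl12. Beside Rplp0, Rplp2 was at 3714 and 4081 (1.10-fold) and Rpl12 at 159 and 185 (1.16-fold), both higher in marginal zone cells. All 3 measured stalk genes were higher there, as were 81.8% of the large subunit genes; Rplp1 had no probe set of its own. Rpl11, which carries the ribosomal 5S RNA with Rpl5 and binds the p53 regulator Mdm2, was at 737 and 835, 1.13-fold higher in marginal zone cells.

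Around the exit tunnel, 5 genes were measured and 3 (60%) were higher in marginal zone cells, against 81.8% of the large subunit genes. Beside Rpl39, Rpl35 was at 3650 and 4143 (1.14-fold) and Rpl38, which is needed for the translation of certain Hox mRNAs, at 3678 and 4041 (1.10-fold). Rpl19, which also bridges the subunits, gave 3348 and 2960, in follicular cells 1.13-fold more. Rpl22, which is needed for normal T cell development, gave 400 and 386 on its brightest probe set and 88.4 and 97.5 on the other, in opposite directions.

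Of the other large subunit genes, Rpl37 was at 75.7 and 96.7 (1.28-fold) and Rpl10a at 2904 and 3520 (1.21-fold), both higher in marginal zone cells. Next came Rpl27 at 1271 and 1412 (1.11-fold) and Rpl14 at 53.2 and 56.7 (1.07-fold). Rpl37a was at 2229 and 2526 (1.13-fold) on its brightest probe set, with a mean of -0.027 over its 3 probe sets. Genes with nearly equal signals were Rpl4 at 2922 and 3080, Rpl7a at 3427 and 3564, Rpl27a at 628 and 638, Rpl7 at 3081 and 3111, and Rpl6 at 2525 and 2541. Their folds lay between 1.01 and 1.05. Rpl8, at 2849 and 2722, differed by 1.05-fold. Rpl13a, which has a further role in silencing inflammatory mRNAs after interferon-gamma, was the brightest member. Its signals of 7045 and 6263 put follicular cells 1.12-fold above marginal zone cells on that probe set, while the mean over its probe sets was 0.34 on the log2 scale.

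In the small subunit, genes of the decoding centre and mRNA path were close to equal, like most genes of that subunit. Of 6 measured, all lay within 1.5-fold, as did 95% of the small subunit genes and 70.6% of all genes. Slightly higher in marginal zone cells were 4 (66.7%), near the 65% of the small subunit genes. Of these 4, Rps28 changed direction under another scaling. Rps26, at the mRNA exit, was at 1577 and 1837 (1.16-fold), Rps14 at 3696 and 3936, Rps2 at 4049 and 4300, and Rps28 at 5272 and 5473. Rps3, which lines the mRNA entry and also acts in DNA repair, was at 3989 and 3897, and Rps15 at 866 and 858. The signs of these last genes turned only where a linear scaling added a constant to every gene.

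Rps6, the substrate of the ribosomal S6 kinases downstream of mTOR, had the highest ratio of the small subunit. It was at 132 and 175, 1.33-fold higher in marginal zone cells, with a log2 ratio of 0.36 on its other measured probe set. Its start site is among those shown above. Rps19, the gene first linked to Diamond-Blackfan anaemia, was at 659 and 780 (1.18-fold). Rps9 was at 1701 and 1986 (1.17-fold), Rps10 at 1662 and 1841 (1.11-fold) and Rpsa, also known as a laminin receptor, at 4840 and 5322 (1.10-fold). All 4 were higher in marginal zone cells. Rps24, another gene linked to Diamond-Blackfan anaemia, gave 1741 and 2039 (1.17-fold) on its brightest probe set, but 4 of its 6 probe sets had log2 ratios under 0 and the mean over all 6 was -0.0067, so its direction rests on the probe set.

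Lower in marginal zone cells beside Rps27 was Rps25, which some viral internal ribosome entry sites require, at 692 and 521, 1.33-fold. Rps29, a zinc-binding protein of the head, was at 5991 and 5569, 1.08-fold lower. Rps7 at 4851 and 4701, Rps20 at 4669 and 4818, Rps18 at 5895 and 6071 and Rps4x at 4822 and 4787 differed by 1.01-fold to 1.03-fold.

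**Figure D2:**
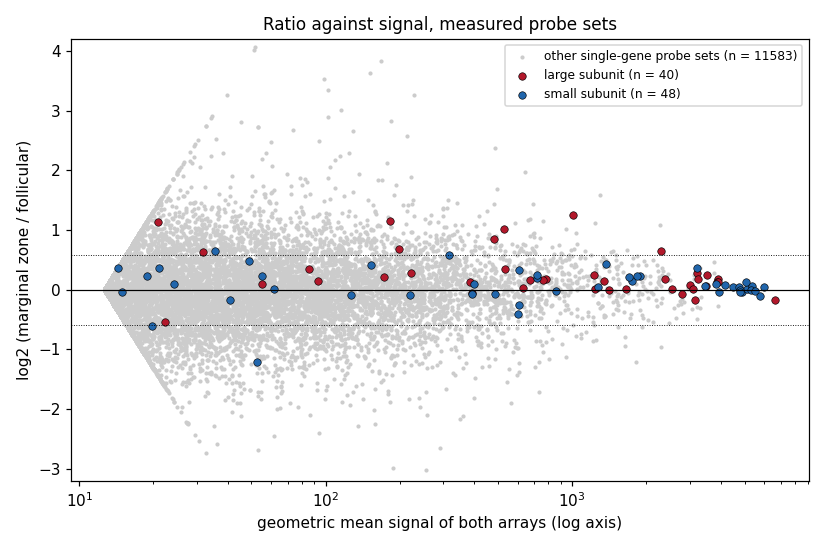
Log2 ratio, marginal zone over follicular, against the geometric mean signal (log axis) for measured probe sets of large (red, n = 40) and small (blue, n = 48) subunit genes and for other single-gene probe sets (grey, n = 11583); dotted lines mark 1.5-fold. The 28 member probe sets at 3000 or more lie within 1.5-fold, and most of those between 1000 and 3000 lie above 0.

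By rank, ribosomal protein probe sets filled the top of both arrays. A rank describes a probe set and depends on its probes, so it is no order of mRNA abundance between genes. Of the 42 members, 26 were in the top 1% of all probe sets in follicular and 27 in marginal zone cells, and 35 were in the top 5% in both. The median percentile was 99.4 and 99.5. Of the 100 brightest probe sets, 25 in follicular and 28 in marginal zone cells were members, and a further 39 and 41 were shared probe sets. The small subunit gave 16 and 17 of these members, the large subunit 9 and 11.

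Ranks moved little, with a median shift of 0.03 percentile points, and 30 members ranked higher in marginal zone cells, 11 lower. Rank shifts were not counted over all genes, so these numbers have no background here. The shift was over 5 points for 2 members: Rps27 fell from percentile 82.4 to 70.8, and Rpl39 went from 65.4 to 72.9. Both were dim by these probe sets. As a share of all deposited signal, which no linear scaling changes, the 96 member probe sets held 7.54% in follicular and 7.91% in marginal zone cells, a ratio of 1.05. The large subunit went from 2.99% to 3.24%, a ratio of 1.08, and the small subunit from 4.56% to 4.67%, a ratio of 1.03. Without Rpl41 the ratio over all members was 1.04. The shared probe sets held 11.1% and 11.5%.

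Over all signal levels, ratios of ribosomal protein genes were less spread than those of other genes. The SD was 0.33 over the members and 0.61 over all measured genes, and the middle 50% spanned 0.21 against 0.70. The spread depended on signal. Of member probe sets at a mean signal of 3000 or more, 28 in all, the SD was 0.12 and the median 0.05; among the 16 other single-gene probe sets there, the SD was 0.27 and the median -0.01. Neither group had a probe set past 1.5-fold. At low signal members were about as spread as other genes. Past 1.5-fold in either direction were 33.3% of 12 member probe sets under a signal of 50, against 30.8% of the others, and 27.3% of 11 between 50 and 200, against 30.2%. From 200 to 1000 the shares were 9.52% and 25.7%, and from 1000 to 3000 they were 12.5% and 14.8%. Saturation of these bright probe sets was not tested.

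Between signals of 1000 and 3000, 15 of 16 member probe sets (93.8%) were higher in marginal zone cells; their median was 0.17, against 55.2% of 183 other probe sets, with a median of 0.05. From 200 to 1000 it was 14 of 21 (66.7%), with a median of 0.16, against 50.6% and 0.01. The 11 member probe sets from 50 to 200 had a median of 0.21 and the 12 under 50 one of 0.29, where other probe sets had -0.02 and -0.04. The slight excess in marginal zone cells was thus present, with trimmed-mean scaling, in each range of signal and smallest at the top. The 98 measured shared probe sets, which the rule left out, had a median of 0.10. Of them 68 (69.4%) were higher in marginal zone cells, against 47.8% of all measured single-gene probe sets. At a signal of 3000 or more, the 42 shared probe sets had a median of 0.0035, with 54.8% higher in marginal zone cells.

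**Figure D3:**
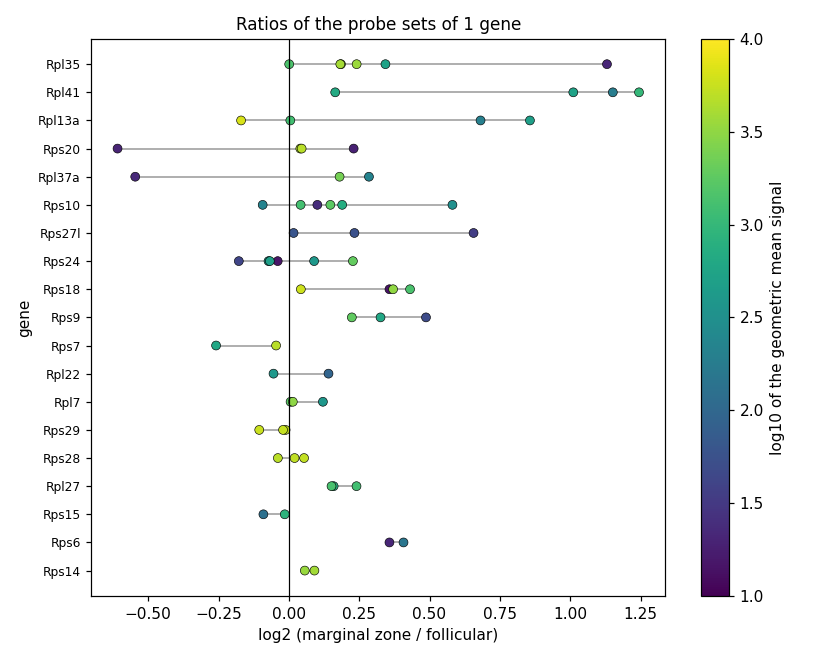
Log2 ratios of every measured probe set of the 19 ribosomal protein genes with more than 1, coloured by geometric mean signal (log10) and joined by a line per gene. Rpl41 lies far to the right on 3 of 4 probe sets, while the brightest probe set of Rpl13a lies at -0.17 and its dimmer ones reach 0.86.

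Different probe sets of 1 gene gave the nearest thing to a repeat measurement; they share the RNA and the array. For the 19 members with several measured probe sets, the pooled SD within a gene was 0.29 on the log2 scale, against 0.43 for 2603 other genes, so differences as small as the median of the members lie within it for any single gene. All probe sets had 1 sign in 12 of 19 (63.2%), against 59.3% of other genes. The widest range was that of Rpl35, from 0.0012 to 1.13 over 6 probe sets, all at or above 0; the extreme was a dim one at 14.1 and 31.0. Next came Rpl41, from 0.16 to 1.24, and Rpl13a, from -0.17 to 0.86 over 4.

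The probe sets of Rpl13a at 156 and 250 and at 357 and 647 were past 1.5-fold, that at 1234 and 1238 was equal, and the brightest was lower in marginal zone cells. Rps20 ran from -0.61 to 0.23 and Rpl37a from -0.55 to 0.28, in each case with the low value on a dim probe set, that of Rpl37a at 26.9 and 18.4. For Rps18, probe sets at 1177 and 1587 and at 2820 and 3646 were at 0.43 and 0.37, while the brightest was at 0.04. The 6 probe sets of Rps10 ran from -0.09 to 0.58 and the 6 of Rps24 from -0.18 to 0.23. Rps9 had its 3 probe sets between 0.22 and 0.49. Agreement was closest for Rps14, whose probe sets differed by 0.03, and for Rps6, whose probe sets differed by 0.05. The brightest probe set had a smaller absolute ratio than the median of the others in 10 of 19 members (52.6%), near the 47.5% of other genes.

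**Figure D4:**
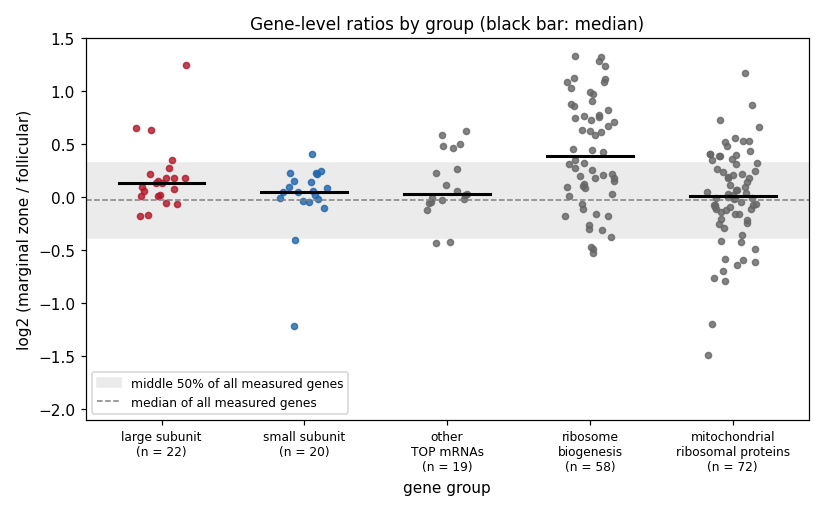
Gene-level log2 ratios by group: large (n = 22) and small (n = 20) subunit, other TOP mRNAs (n = 19), ribosome biogenesis (n = 58) and mitochondrial ribosomal proteins (n = 72), with a bar at each median and a band for the middle 50% of all measured genes. Ribosome biogenesis has the highest median, 0.39. The medians of the large and small subunit, 0.14 and 0.05, lie slightly above the -0.03 of all genes.

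Genes that work with the ribosomal proteins were set beside them. Ribosome biogenesis factors process ribosomal RNA and assemble the subunits. Their median log2 ratio was 0.39 over 58 measured genes, with 46 (79.3%) higher in marginal zone cells. This is above the 0.09 of the members, but not at like signal. Median signals were 101 and 138 for the biogenesis genes and 2377 and 2632 for the members. The 11 member probe sets between signals of 50 and 200 had a median of 0.21. Past 1.5-fold there were 25 (43.1%), against 13.6% of all genes, and 0 were past it in follicular cells, against 15.8%. Gnl3, a nucleolar GTPase, was at 838 and 1811 (2.16-fold), Gnl2 at 148 and 349 (2.35-fold), Ppan at 68.2 and 148 (2.17-fold) and Taf1a, of the RNA polymerase I initiation factor, at 39.2 and 98.8 (2.52-fold). Nop16, at 9.70 and 31.6, and the polymerase subunit Polr1b, at 4.85 and 30.9, were under the floor in follicular cells. The RNA polymerase I genes did not all go one way: Ubtf was at 208 and 160, Taf1c at 67.3 and 54.3, Rrn3 at 58.8 and 48.9 and Polr1e at 29.9 and 20.8, all higher in follicular cells and within 1.5-fold. The 19 measured TOP mRNAs of other proteins had a median of 0.02, with 11 (57.9%) higher in marginal zone cells, against 47.8% of all genes. Past 1.5-fold there were 2 (10.5%), below the 13.6% of all genes. These were Npm1, a nucleolar chaperone, at 1231 and 1852, and Hnrnpa1, a splicing factor, at 569 and 874. Of other TOP mRNAs at high signal, the elongation factor Eef1a1 was at 5164 and 5098 and Tpt1 at 5340 and 5311. Mitochondrial ribosomal proteins, which form a separate ribosome, had a median of 0.01 over 72 genes, with 37 (51.4%) higher in marginal zone cells. Past 1.5-fold were 4 (5.56%) there and 9 (12.5%) in follicular cells, both below the 13.6% and 15.8% of all genes. No difference between these groups was tested.

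Of 13 measured genes of TOP mRNA control and related steps of translation, 4 (30.8%) were past 1.5-fold in marginal zone and 1 (7.69%) in follicular cells, against 13.6% and 15.8% of all genes. Larp1, which binds the TOP tract, was at 244 and 480 (1.97-fold) and the cap-binding factor Eif4e at 64.1 and 120 (1.87-fold). Its inhibitor Eif4ebp1 was at 23.4 and 45.3 (1.93-fold) and Zfp598, which senses collided ribosomes, at 53.2 and 84.1 (1.58-fold). Mtor went the other way, with 69.0 and 32.3, a 2.14-fold difference. So did Eif4ebp2, an inhibitor of Eif4e with higher signals than Eif4ebp1, at 148 and 112 (1.32-fold). Ribosomal proteins and relatives outside the naming rule also went both ways. Fau, which encodes a ubiquitin-like protein fused to a small subunit protein, gave 760 and 561, 1.35-fold more in follicular cells. Rpl22l1, a paralog of Rpl22, was at 695 and 1002 (1.44-fold) and Rpl7l1 at 93.2 and 115 (1.23-fold), both higher in marginal zone cells.

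The sign of small differences depended on how the arrays were brought to a common scale and on the probe set. Under 5 other scalings, 24 members stayed higher in marginal zone cells and 6 in follicular cells, a count not made over all genes. The other 12 members changed sign under at least 1. Of these, Rps3, Rps7 and Rps15 turned only under scalings that add the same constant to every log2 ratio, which turns any gene just under 0. Rpl6, Rpl7, Rpl7a, Rpl8, Rpl27a, Rps4x, Rps18, Rps20 and Rps28 turned under quantile normalization or loess. With another rule for the probe set, 6 members changed sign, namely Rpl13a, Rpl22, Rpl37a, Rps20, Rps24 and Rps28. No direction is claimed for any of these genes. The 4 members past 1.5-fold kept their direction under all 5. They were picked for large ratios, which the scalings moved little, so this is no independent check. The members' median exceeded that of all genes under each scaling, by 0.05 with loess, by 0.06 with loess fitted without ribosomal protein probe sets, by 0.08 with quantile normalization and by 0.12 with the linear scalings.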

How the data were processed

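The values are linear intensities as deposited, made with MAS5 per the submitters' processing notes; its version and target are not given in the sources. Per the labels' protocols, roughly 100 ng of RNA from each population was amplified before biotin labelling. Probe sets were named from the platform annotation. Each array was scaled to a common mean after trimming 2% at each end (factors 1.01 and 0.990); values under the floor of 12.7, the median of all scaled values, were raised to it. A gene's brightest measured probe set, by mean log2 value, stood for it. Groups are described by counts and medians, with 1.5-fold as threshold, beside all 7695 measured genes. Named were members past 1.5-fold, the 6 highest and lowest of each subunit with probe sets of 1 sign, the 5 widest between probe sets and the role lists; the remaining members were added after their values were seen. The members and lists were chosen with earlier results of these data known. Alternatives covered scaling, floor, pseudocount, probe set rule, paralogs and threshold. The procedure was tested on simulated data. Python 3.11.15, pandas 2.3.3 and statsmodels 0.14.6 were used. The number of arrays limits the precision.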

Additional observations from a re-analysis of the deposited data

How the results depend on the processing

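No paired analysis was possible because each population has 1 array, and no array could be left out. A median was counted as moved beyond 0.05 on the log2 scale, a count beyond 1.5 times; the causes of the changes were not tested. Median scaling gave median log2 ratios of 0.14 for all members, 0.19 for large and 0.10 for small subunit genes; loess gave 0.036 for all members. Quantile normalization gave 0.083 for large subunit genes and a difference between subunits of 0.030. With the dimmest measured probe set the SD was 0.40, the rank shift 0.15 points and the members past 1.5-fold in marginal zone cells 6. Of the 96 member probe sets, 40 have names ending in _x_at and 2 in _s_at, and whether these also detect related transcripts was not tested. Without them 37 members stayed measured, with a median of 0.094, and 2 were past 1.5-fold in follicular cells. The log2 ratio was then -0.61 for Rps20, -0.18 for Rps24, 0.37 for Rps18 and 1.15 for Rpl41. At a lower threshold the counts in marginal zone and follicular cells were 5 and 2, and at 2-fold 1 was in marginal zone cells. Chosen after seeing the data were 3 more. The brightest probe set under a signal of 3000 gave a median of 0.15 for all and 0.15 for small subunit genes, an SD of 0.42, a rank shift of 0.10 points, 2 members past 1.5-fold in follicular cells and a reversed difference between subunits of -0.025. Adding shared probe sets gave 68 members, 47 of them higher in marginal zone cells, an SD of 0.27, a large subunit median of 0.073 and a difference of 0.0040. Leaving out Rpl41 gave 2 past 1.5-fold in marginal zone cells. Over the settings without shared probe sets, the log2 ratio of Rpl41 stayed at or above 0.89 and that of Rps27 between -1.22 and -0.81. That of Rpl39 fell to 0.45 with a pseudocount, and with the floor at the 75th percentile Rpl39 was not measured. With shared probe sets, ratios of single genes were not computed. The shared probe sets listing Rpl39 and Rps27 were at -0.02 and -0.13, and 2 members were then past 1.5-fold in marginal zone cells.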
